A study of Mus musculus with 11 samples.

Results

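The LIM homeobox genes examined here were Lhx1, Lhx2, Lhx3, Lhx4, Lhx5, Lhx6, Lhx8, Lhx9, Isl1 and Isl2, chosen by name from the RefSeq annotation of mm10, 10 of the 21779 protein-coding genes used. Listed peaks from a pull-down of Smchd1 fused to GFP were counted in each gene, within 5 kb and within 50 kb. All 10 genes were found, on 7 autosomes, with annotated spans of 7.56 to 53.7 kb. Smchd1, related to the SMC proteins that shape chromosomes, is best known for keeping genes of the inactive X chromosome and of certain autosomal clusters silent. It was mapped by chromatin immunoprecipitation with an antibody to GFP and sequencing, in neural stem cells grown from C57BL/6 embryos of day 14.5 and kept for up to 20 passages.

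The knock-in cells were homozygous for an allele that fuses Smchd1 to GFP, and wild-type cells without the tag went through the same pull-down. In the experiment with micrococcal nuclease (MNase), an enzyme that cuts between nucleosomes, the knock-in group held 1 male and 1 female library, the wild-type group likewise 1 male and 1 female, and whole cell extract 1 female library. In the sonication experiment, all from female cells, there were 2 libraries each of knock-in cells, wild-type cells and whole cell extract. Each experiment was deposited as 1 list of peak positions for all its libraries, 2840 MNase peaks and 2196 sonication peaks. A peak therefore has no value per library, per sex or per replicate, its depth is unknown, and no difference between knock-in and wild-type cells could be tested. The lists hold no expression, so the labelled cell type was not checked against marker genes, and a peak says nothing here of whether the gene was active.

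LIM homeobox genes encode transcription factors that join paired LIM domains, which bind cofactor proteins, to a homeodomain, which binds DNA. They are known for assigning the identity of neurons, in combinations with each other and through the bridging cofactor Ldb1. In the nervous system, Isl1 and Isl2 act in motor and sensory neurons, Lhx3 and Lhx4 in motor neurons and the pituitary, Lhx1 and Lhx5 in spinal interneurons and the early forebrain, Lhx2 and Lhx9 in the forebrain, and Lhx6 and Lhx8 in neurons of the ventral forebrain.

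Among the 10 genes, MNase peaks were listed at Isl1, Lhx5 and Lhx8. Whether the listed peaks are net of the signal in untagged wild-type cells is not known. Isl1 had 7 peaks within 5 kb, Lhx5 had 2 and Lhx8 had 1, so that 3 of the 10 genes (30.0%) had a peak, where 5.28% of all coding genes did. Among coding genes as long as the members, 7.56 to 53.7 kb, the share was 3.39%. The other 7 genes had 0 MNase peaks, also within 50 kb, where 11.3% of coding genes had one. The sonication list held no peak within 50 kb of any of the 10 genes, where 7.84% of coding genes had one. The 3 genes lie on chromosomes 13, 5 and 3, so they were separate sites.

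**Figure D1:**
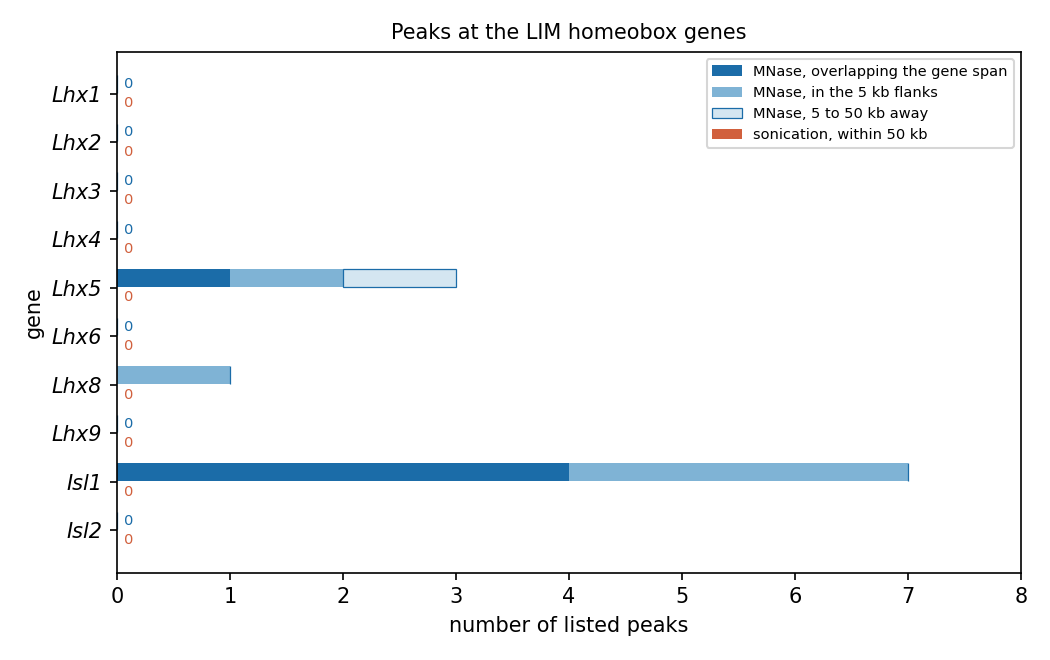
Number of listed peaks (horizontal axis) at each LIM homeobox gene, in blue for MNase peaks (dark, overlapping the gene span; mid, in the 5 kb flanks; pale, 5 to 50 kb away) and in orange for sonication peaks within 50 kb. Isl1 had 7 MNase peaks, Lhx5 3 within 50 kb and Lhx8 1, while the other genes had 0 and all sonication counts were 0.

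Promoter sequences are shown for Isl1, the only one of the 9 members with a promoter window in the table, Lhx5 having none, whose window met an MNase peak (0.941% of windows of coding genes did), for its close relative Isl2, for Lhx8, whose peak lay just outside the window, and for Lhx1, which is rich in CpG but far from any peak. Each runs 5′ to 3′ on the gene's strand, from 250 bases before to 50 after an annotated start, as given by RefSeq for GRCm38.p6, and capitals mark CpG dinucleotides. The windows are chr13:116309639-116309938 (minus strand) for Isl1, chr9:55540899-55541198 (plus strand) for Isl2, chr3:154330511-154330810 (minus strand) for Lhx8 and chr11:84525485-84525784 (minus strand) for Lhx1.
Isl1: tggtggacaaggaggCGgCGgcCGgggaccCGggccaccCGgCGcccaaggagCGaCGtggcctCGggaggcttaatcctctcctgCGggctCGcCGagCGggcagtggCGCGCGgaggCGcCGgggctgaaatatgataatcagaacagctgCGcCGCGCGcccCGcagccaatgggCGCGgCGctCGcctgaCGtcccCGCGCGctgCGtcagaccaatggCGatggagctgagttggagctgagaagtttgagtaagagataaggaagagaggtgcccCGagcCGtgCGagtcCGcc
Isl2: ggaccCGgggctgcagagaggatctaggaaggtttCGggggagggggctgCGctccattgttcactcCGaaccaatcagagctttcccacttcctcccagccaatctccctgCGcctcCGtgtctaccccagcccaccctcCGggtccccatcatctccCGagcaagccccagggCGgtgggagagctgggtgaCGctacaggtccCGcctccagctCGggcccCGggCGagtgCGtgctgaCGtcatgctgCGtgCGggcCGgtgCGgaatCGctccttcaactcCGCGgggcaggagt
Lhx8: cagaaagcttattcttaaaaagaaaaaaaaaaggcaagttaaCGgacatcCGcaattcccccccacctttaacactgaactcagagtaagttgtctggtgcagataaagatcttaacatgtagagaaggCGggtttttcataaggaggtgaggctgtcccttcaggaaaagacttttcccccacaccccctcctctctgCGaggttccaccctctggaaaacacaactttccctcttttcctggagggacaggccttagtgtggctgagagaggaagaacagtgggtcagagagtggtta
Lhx1: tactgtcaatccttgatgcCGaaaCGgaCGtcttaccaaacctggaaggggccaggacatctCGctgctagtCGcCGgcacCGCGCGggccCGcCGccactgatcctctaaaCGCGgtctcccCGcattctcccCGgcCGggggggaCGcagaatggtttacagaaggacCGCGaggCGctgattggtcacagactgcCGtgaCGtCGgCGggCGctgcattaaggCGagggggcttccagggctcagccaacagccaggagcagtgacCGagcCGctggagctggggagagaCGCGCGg
The Isl1 window holds 37 CpG and lies whole inside an MNase peak. The Isl2 window holds 23, the Lhx8 window 4 and the Lhx1 window 31, and none of these met a peak.

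Isl1 encodes a factor that motor neurons, sensory neurons, heart progenitors and pancreatic islets need. Its span runs from 116298270 to 116309688 on chromosome 13, and its transcription starts at the higher end. The first peak, of 450 bp, lay 1620 bp beyond the 3′ end of the gene, and the second, of 750 bp from 116298451 to 116299200, inside that end. After 7500 bp without a peak, 5 peaks followed over the 5′ part of the gene and the sequence upstream. These were 450, 1050, 1350, 1650 and 600 bp wide, with gaps of 150 to 600 bp between them. Isl1 thus carried peaks at both ends, with most of the listed bases at the 5′ end.

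The 1350 bp peak, from 116309401 to 116310750, covered the transcription start, reaching from 1062 bp upstream to 287 bp downstream of it. The widest, of 1650 bp from 116310901 to 116312550, began 1213 bp upstream of the start. In the MNase list as a whole the median width was 450 bp, and 6.23% of the peaks were at least 1350 bp wide. Joined across gaps of up to 1 kb, the 7 peaks made 3 stretches. The longest of these, 6.60 kb from 116306701 to 116313300, held 5 peaks that filled 77.3% of it.

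Isl1 stood among the coding genes with the most MNase peaks. At least 7 peaks within 5 kb were listed at 46 of the 21779 coding genes, of which 28, Isl1 included, were not Hox genes. Of the 1151 coding genes with any MNase peak within 5 kb, 860 (74.7%) had 1. Counted in listed bases, which leave out the gaps between peaks, 6.30 kb of peak lay over Isl1 and its 5 kb flanks, 29.4% of that window. More bases were listed at 41 coding genes, and the median over the genes with a peak was 600 bp. No annotated gene of any kind lay within 50 kb of Isl1, and the nearest coding genes were Parp8, 541 kb away on the higher side, and Itga1, 1196 kb away on the lower side. The Isl1 peaks therefore had no other annotated gene beside them.

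**Figure D2:**
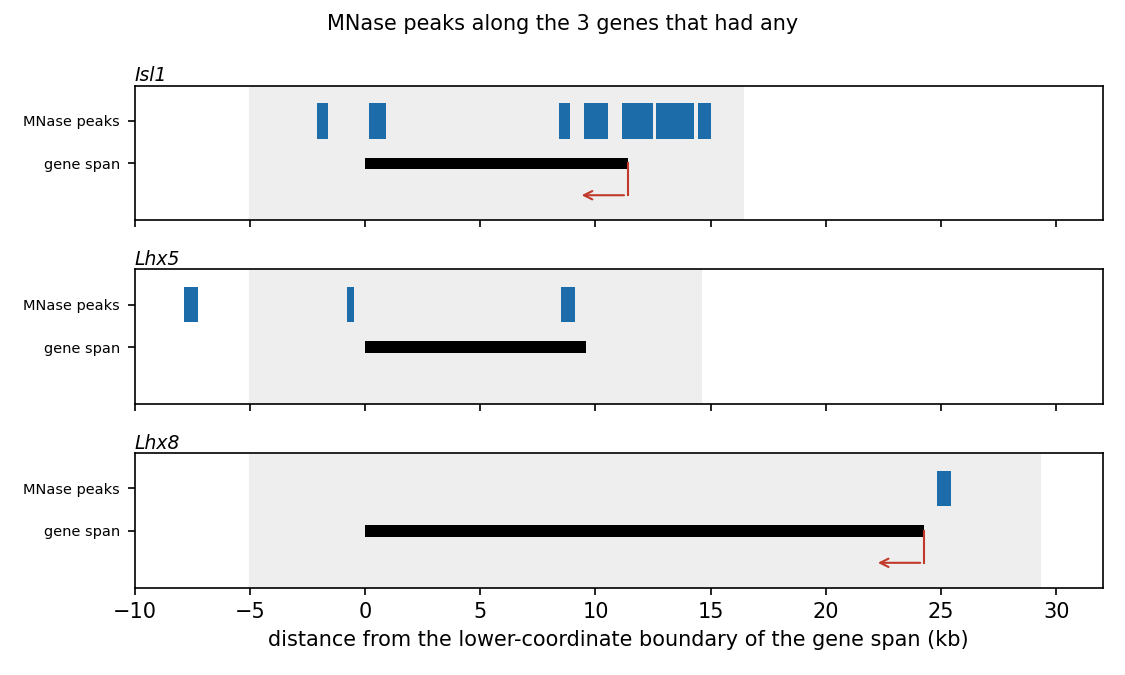
MNase peaks (blue) along Isl1, Lhx5 and Lhx8, by distance in kb from the lower-coordinate boundary of each gene span (black); grey marks the span with 5 kb flanks and the red arrow the start and direction of transcription, shown where the promoter table gives it. The Isl1 peaks sit at both ends of the gene and upstream, the nearer Lhx5 peaks at either end, and the Lhx8 peak upstream of the start.

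Lhx5 encodes a factor of the developing forebrain and of spinal interneurons. Its span runs from 120431886 to 120441457 on chromosome 5. Of its peaks, 1 of 600 bp, from 120440401 to 120441000, lay inside the gene, 457 bp from its higher boundary. Another, of the smallest listed width, 300 bp, from 120431101 to 120431400, lay 486 bp outside the lower boundary. The remaining one, of 600 bp, lay 7236 bp outside that boundary, beyond the 5 kb flank. Both outside peaks also overlapped the non-coding genes Gm27199 and Gm31976, so they cannot be assigned to Lhx5 alone. Peaks within 5 kb added up to 0.90 kb, or 4.60% of the window, and 1.34% of coding genes had at least 2 peaks there.

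Lhx8 encodes a factor of basal forebrain cholinergic neurons, also known from oocytes. Its span runs from 154306288 to 154330560 on chromosome 3, with transcription from the higher end. The 1 peak, of 600 bp from 154331101 to 154331700, lay 541 to 1140 bp upstream of the start and did not touch the gene. It overlapped the non-coding gene AI606473, so it cannot be assigned to Lhx8 alone. Counted by gene span alone, without flanks, Lhx8 dropped out, which left Isl1 and Lhx5, 2 of 10 genes (20.0%), beside 4.13% of coding genes.

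Together the 10 peaks within 5 kb covered 7.80 kb, of which 80.8% was at Isl1. Their median width was 600 bp and 9 of the 10 were wider than 300 bp, where 61.8% of all MNase peaks were. The total for the family is therefore mainly a value of 1 gene.

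The 10 genes fall into 5 pairs of close relatives, while the related Lmx1a and Lmx1b were not among the 10. In 3 of the 5 pairs, 1 gene had an MNase peak and the other had 0. Isl1 had 7 peaks and Isl2 had 0, Lhx5 had 2 and Lhx1 had 0, and Lhx8 had 1 and Lhx6 had 0. Neither Lhx2 nor Lhx9, and neither Lhx3 nor Lhx4, had a peak. No pair had peaks at both genes, which is no contrast where only 3 of the 10 genes had a peak. The pairs were set with the peak counts known, and no test was made of these counts.

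Of the 7 genes with no MNase peak, Lhx9, a factor needed for the gonads, lay nearest to one, at 130 kb. Lhx2, which acts in cortical progenitors and the eye, was 577 kb from the nearest, Lhx6, a factor of cortical interneurons, 580 kb, and Isl2 594 kb. Lhx3 lay at 756 kb and Lhx4, its relative in pituitary development, at 866 kb. Lhx1, which is also needed for kidney and head formation, lay farthest, at 1245 kb. Across all coding genes the median distance to an MNase peak was 462 kb, and 6 of these 7 genes were farther than that. Genes with a peak nearby were left out of the 7 but not of that median, so this count shows no trait of the 7. Over all 10 genes the median was 578 kb. The 10 genes thus included 3 with a peak at or beside the gene and 7 with none nearer than 130 kb.

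The sonication peak nearest to any of the genes lay 74.0 kb from Lhx9, followed by 88.9 kb from Lhx6, 151 kb from Lhx8 and 208 kb from Lhx2. Isl1, the gene with the most MNase peaks, was 1566 kb from a sonication peak, and Lhx3 was farthest, at 2957 kb. The median over the 10 genes was 546 kb, and over all coding genes 741 kb, so the family was not farther from sonication peaks than coding genes in general. Within 5 kb, 3.38% of coding genes had a sonication peak, and within 50 kb 7.84% did, so a count of 0 among 10 genes is close to these shares. At coding genes with an MNase peak within 5 kb, 14.2% also had a sonication peak within 5 kb and 19.2% within 50 kb, and Isl1, Lhx5 and Lhx8 were not among them. Fragmentation and the sexes of the cells differed together between the lists and cannot be told apart. None of the authors' 11 broad domains came within 50 kb of any of the 10 genes. The share of all coding genes near a domain was not counted, so this is no result about the 10 genes.

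**Figure D3:**
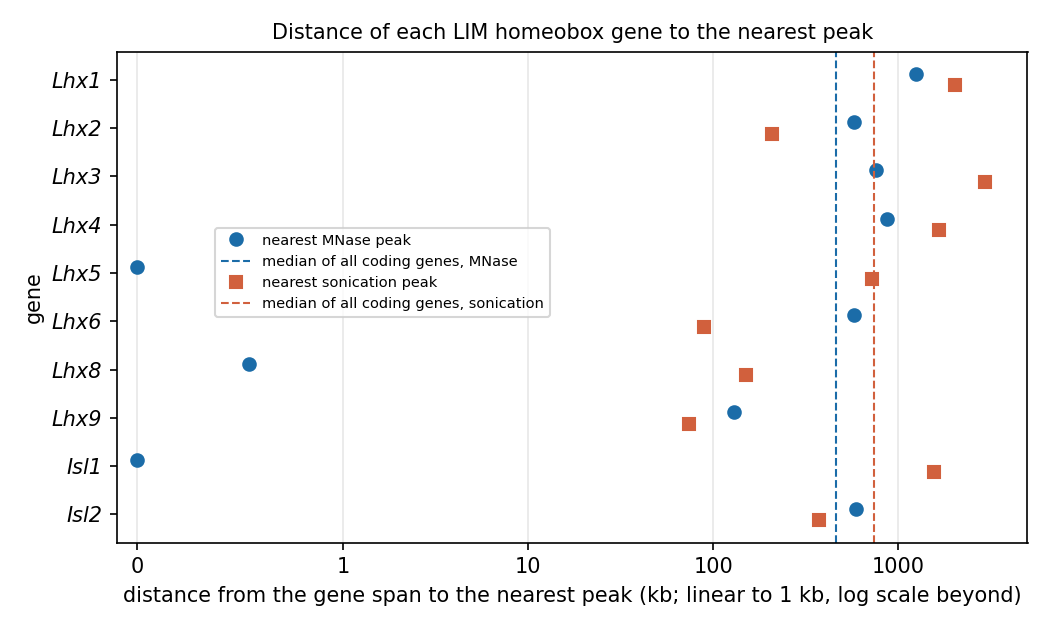
Distance in kb (linear up to 1 kb, log scale beyond) of each LIM homeobox gene to its nearest MNase peak (blue circles) and sonication peak (orange squares), with dashed lines at the medians of all coding genes, 462 and 741 kb. Isl1 and Lhx5 sit at 0 and Lhx8 at 0.541 kb for MNase, and all sonication distances are 74.0 kb or more.

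Promoter windows were matched for 9 of the 10 genes, as 13 windows of 300 bases, with no entry for Lhx5. The Isl1 window was the only one of the 13 that met an MNase peak, where 200 of 21263 windows of coding genes did. It was covered over its full length, as were 98 windows of coding genes in all. Its GC content was 69.0% and its ratio of observed to expected CpG was 1.05. The 12 windows of the family without a peak held 4 to 34 CpG, with a median of 18.0. A promoter rich in CpG was thus not always one with a peak: the first Lhx2 window held 34 CpG with a GC content of 74.7%, and that of Lhx1 held 31 with a GC content of 65.7%. Lhx8, with a peak 291 bp from its window, had the fewest CpG of the 13 windows, 4, and a GC content of 47.0%.

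Over all coding genes, windows that met an MNase peak had a median of 21.0 CpG (200 windows), and those that did not had a median of 13.0 (21063 windows). Of all windows, 7.29% held at least the 37 CpG of Isl1, and 1.42% of those met an MNase peak. TAATTA is a sequence that many homeodomains bind and that reads the same on both strands. These letters were found in 0 of the 13 windows of the family and in 4.53% of windows of coding genes. At that share a count of 0 among 13 is no contrast.

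**Figure D4:**
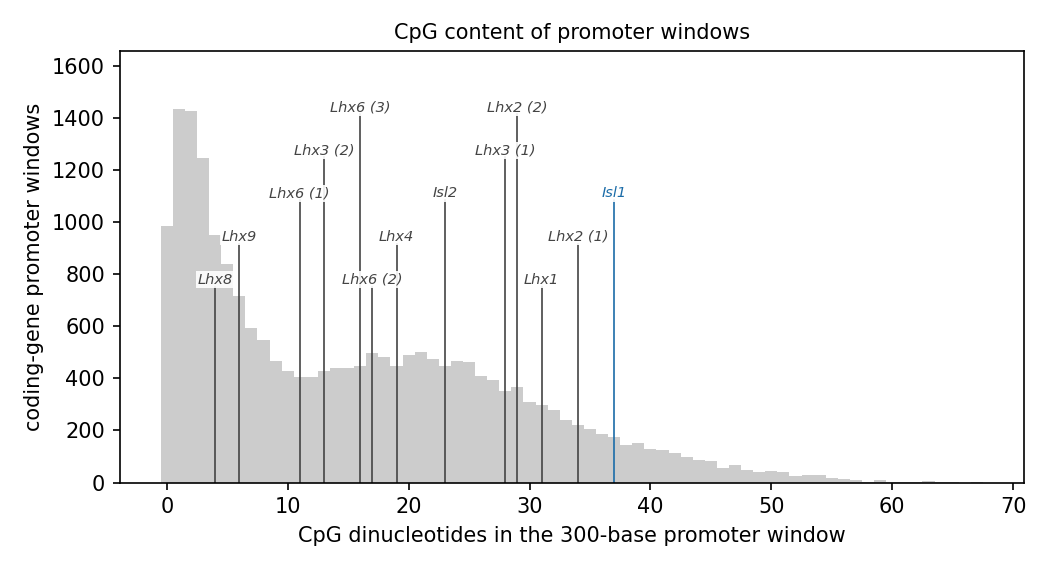
Number of CpG dinucleotides per promoter window of 300 bases (horizontal axis) over 21263 windows of coding genes (grey histogram, number of windows), with lines for the 13 LIM homeobox windows, numbered by position where a gene has several; line heights carry no meaning. The Isl1 window (blue), which met an MNase peak, lies at 37, the highest of the 13, and those without a peak (dark grey) lie between 4 and 34.

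For each gene the nearest coding gene on either side was taken, 20 in all, and 0 of them had an MNase peak within 5 kb, beside 5.28% of all coding genes, a share at which a count of 0 among 20 is no contrast. Sdsl, 16.7 kb from Lhx5, and Slc44a5, 34.5 kb from Lhx8, were among these, as were Parp8 and Itga1 beside Isl1. Of the 20, 1 had a sonication peak within 5 kb, Dennd1a, the neighbour of Lhx2, beside 3.38% of all coding genes. Dennd1a spans 488421 bp, and the sonication peak nearest to Lhx2 lay 208 kb away.

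Genes that work with the LIM homeobox factors were counted in 4 lists, to be read against the 5.28% of all coding genes with an MNase peak within 5 kb and the 3.38% with a sonication peak. Of 12 genes for the remaining family members, LIM-only proteins and cofactors, 2 had an MNase peak within 5 kb. These were Lmx1a, a LIM homeobox gene of dopamine neurons and the roof plate, with 1 peak of 1.80 kb, and Lmo3, a LIM-only protein gene, with 1 of 450 bp. Ldb1, Ldb2, Lmx1b, Lmo1, Lmo2, Lmo4, Rlim, Ssbp2, Ssbp3 and Ssbp4 had 0. Both Ldb genes, whose products bind LIM homeobox factors directly, were thus without a listed peak within 5 kb.

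Of 15 genes of the spinal cord programme, 7 had an MNase peak. Gata3, which acts in V2b interneurons, Evx1, a marker of V0 interneurons beside the HoxA cluster, and Sim1, a marker of V3 interneurons, had 5 each. Neurog2, a proneural gene that acts with Isl1 and Lhx3 in motor neurons, and Bhlhe22 had 2 each, and En1, of V1 interneurons, and Foxp1, of limb motor neurons, had 1 each. The motor neuron genes Mnx1, Olig2, Chat and Slc18a3, and Gata2 and Tal1 of V2 interneurons, were among those with 0. Sim1 also had 1 sonication peak. Genes of motor neurons and of interneurons thus stood both among those with a peak and among those without.

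In the forebrain interneuron list, 4 of 14 genes had an MNase peak. Nkx2-1, which lies upstream of Lhx6 and Lhx8 in the ventral forebrain, had 4, Erbb4 had 2 and Gad1, an enzyme of GABA synthesis, had 1. Erbb4 spans 1077 kb and also had 1 sonication peak. Sox6, Satb1, Maf, Sst, Pvalb, Ackr3, Cxcr4, Gad2 and Gbx1 were among those with 0. In the pituitary list 3 of 8 genes had a peak. Pitx1 and Six6 had 1 each, and Pou1f1, Hesx1, Sox3 and Tbx19 were among those with 0. Over the 49 genes of the 4 lists, 16 (32.7%) had an MNase peak within 5 kb, beside 5.28% of all coding genes. The lists were chosen with earlier results of these data known, and the 5.28% is not matched to their gene lengths. Some of their genes are long, both with a peak (Foxp1, 597 kb) and without (Sox6, 570 kb). A sonication peak was listed at 2 of the 49, near the 3.38% of all coding genes.

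Other homeobox families gave shares near that of the LIM homeobox genes. An MNase peak within 5 kb was listed at 3 of 10 LIM homeobox genes, 2 of 6 Dlx genes, 2 of 7 POU class 3 and 4 genes and 6 of 14 Nkx genes. The most peaks at a gene were 7 at Isl1 in the LIM homeobox family, 6 at Dlx6, 2 at Pou3f3 and 7 at Nkx6-1. Single peaks were listed at Pou4f1, Nkx1-2, Nkx2-4, Nkx2-9 and Nkx3-2, and 2 at Dlx2. The 3 other families had 0 genes with a sonication peak within 5 kb. Beside the 3.38% of all coding genes with one, this is no contrast. Within 50 kb, Pou3f4 had 2 sonication peaks, where 7.84% of coding genes had any. No test was made between families, and nothing here sets the LIM homeobox genes apart from them.

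**Figure D5:**
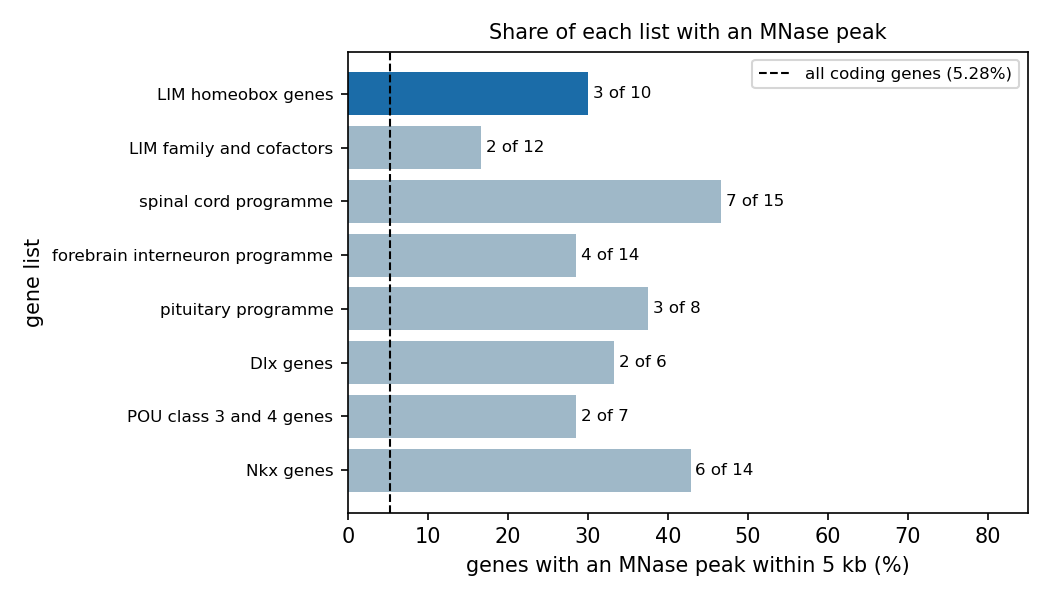
Share of the genes of each list with an MNase peak within 5 kb (horizontal axis, percent), with counts beside the bars and a dashed line at the 5.28% of all coding genes. The LIM homeobox genes (blue), with 3 of 10, lie between the cofactor list, with 2 of 12, and the spinal cord list, with 7 of 15.

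Isl1 was set beside the coding genes with the same number of peaks, 7 MNase and 0 sonication within 5 kb, of which there were 17 besides Isl1. Among the nearest to its 6.30 kb of peak bases were Hoxb4 with 6.08 kb, Tchh with 6.60 kb, Hoxa2 with 7.03 kb and Hoxb2 with 5.42 kb. The Hox genes among them share peaks with neighbouring coding genes, while Tchh, like Isl1, shares its peaks with none. Tchh encodes trichohyalin, a protein of hair follicles. This likeness is over 2 pooled lists and says nothing of shared function.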

How the data were processed

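Smchd1 was mapped by ChIP-seq in 11 libraries, 5 with MNase and 6 with 30 min of sonication. The submitters' processing notes name Bowtie 0.12.9, MACS2, bcl2fastq and the build mm10, without role or order, and the MNase list marks its peaks as called in SeqMonk. The deposited lists give start and end in bp on a grid of 150 bp. The sources used here do not say how wild-type and extract libraries entered them.

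Genes came from a RefSeq table of GRCm38.p6, which gives spans without exons, so exon or intron is not stated. After 340 records in the first 3 Mb of chromosomes other than Y were left out, 49603 were used. A peak counted for a gene when it overlapped the span with 5 kb on each side by at least 1 bp (alternatives: 0, 1, 10 and 50 kb, 150 bp). Analyses used Python 3.11.15 and pandas 2.3.3 and were tested on simulated peaks. Starts and strands came from the RefSeq promoter table.

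The members, lists and pairs were chosen with earlier results of these data known, and no hypothesis test was run. Named genes were the members, list genes with a peak, the nearest coding neighbours and the 5 genes most like Isl1. Several of these are not reported here, and genes at 0 were named as examples.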

Additional observations from a re-analysis of the deposited data

How the results depend on the processing

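The number of LIM homeobox genes with an MNase peak within 5 kb, 3, stayed at 3 with flanks of 1, 10 and 50 kb, with peaks wider than 300 bp only, with peaks merged within 1 kb and with an overlap of at least 150 bp, and was 2 with no flank. The share of background genes ran from 3.39% among coding genes of the members' length range, an alternative chosen after seeing the data, to 11.3% with a flank of 50 kb. The number with a sonication peak was 0 under each of these. Peak bases over the family fell to 3.14 kb with no flank, against 7.80 kb with 5 kb flanks. With no flank, peak bases outside the spans are not counted. Dlx genes with a peak numbered 4 with a flank of 50 kb, against 2. The wider flank of Dlx1 takes in the peaks of Dlx2, and that of Dlx5 takes in those of Dlx6. The number of Isl1 peaks depends on splitting: 7 as listed and 3 when merged within 1 kb. No paired analysis was possible because each experiment is 1 pooled list. For the same reason no library could be left out, and the depth behind any peak is unknown.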
